A study of Mus musculus with 12 samples.

Results

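Collagen crosslinking and hydroxylation enzymes were followed here as a list of 10 named genes out of 39210 in the deposited table of mouse ventricle mRNA. The list holds the 5 lysyl oxidases Lox, Loxl1, Loxl2, Loxl3 and Loxl4, the 3 lysyl hydroxylases Plod1, Plod2 and Plod3, and the prolyl 4-hydroxylase alpha subunits P4ha1 and P4ha2. All 10 were found, and all 10 were among the 13960 genes that passed the filter on low counts. The tissue was frozen heart ventricle of C57BL/6 mice, with 3 libraries for each sex at each of the oxygen levels, normoxia and hypoxia. Hypoxic mice had their oxygen reduced in daily steps of 1% over 14 days to 7% and then spent 2 weeks at that level, and normoxic mice spent 4 weeks in room air at 20.9% oxygen. No genetic change or drug is named for any group. The labels give no age, and the left and right ventricle are not separated. Nothing in them ties each library to an animal of its own, so the p-values cover library-to-library spread, part or all of which may be technical.

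Newly made collagen chains are modified in the endoplasmic reticulum before they leave the cell. Prolyl 4-hydroxylases convert proline to 4-hydroxyproline, which stabilises the collagen triple helix, and lysyl hydroxylases convert lysine to hydroxylysine, which serves as an attachment site for sugars and as a partner in crosslinks. Outside the cell, lysyl oxidases, which are copper amine oxidases, turn lysine and hydroxylysine side chains into aldehydes that join neighbouring collagen or elastin molecules. The hydroxylases use molecular oxygen, iron, 2-oxoglutarate and ascorbate, and lysyl oxidases also use oxygen. P4ha1, P4ha2, Plod2 and Lox are textbook targets of the hypoxia-inducible factors (HIF). In the heart these enzymes are made largely by fibroblasts and by vessel wall cells.

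The 12 libraries held 14915830 to 19397851 estimated counts. Ventricular cardiomyocyte markers were abundant in all of them, with Myl2, the ventricular myosin light chain, at 5787 to 9788 CPM (counts scaled to library size with TMM factors). Some libraries stood apart from their groups. Hypoxic male libraries 2 and 3 held 57.7 and 54.0 CPM of Myl7, the atrial myosin light chain, against 0.05 to 0.78 CPM in the other libraries. Summed atrial markers, of which 6 of 8 were tested, were 99.7 to 156 CPM in normoxic males, 513 to 1734 in hypoxic males, 138 to 283 in normoxic females and 201 to 1077 in hypoxic females. The summed adipocyte markers of hypoxic male libraries 2 and 3, of which 3 of 8 were tested, were 30.9 and 24.7 CPM, against at most 4.25 CPM elsewhere. Normoxic female library 3 held 886 CPM of summed immediate early genes, against 104 to 244 CPM elsewhere, and it had the lowest level of Postn, an activated fibroblast gene, at 19.5 CPM. Hypoxic female library 1 lay closest to normoxia of the 6 hypoxia libraries on the first principal component, at 2.69 against 17.0 to 47.2.

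Promoter sequence is shown for 3 members to set the HIF core motif beside the measured response, since P4ha1 and P4ha2 did not pass the test for hypoxia and Plod3 rose. RefSeq promoter entries on GRCm38.p6 were found for 5 of the 10 members: Plod1, Plod3, P4ha1, P4ha2 and Loxl4. The 250 bases before the start site are given 5′ to 3′ on the strand of the gene. Capitals mark the letters ACGTG or GCGTG, which are the HIF core motif, or their reverse complements CACGT and CACGC. The P4ha1 promoter lies at chr10:59323046-59323295, that of P4ha2 at chr11:54100674-54100923 and that of Plod3 at chr5:136986769-136987018, all on the plus strand.
P4ha1: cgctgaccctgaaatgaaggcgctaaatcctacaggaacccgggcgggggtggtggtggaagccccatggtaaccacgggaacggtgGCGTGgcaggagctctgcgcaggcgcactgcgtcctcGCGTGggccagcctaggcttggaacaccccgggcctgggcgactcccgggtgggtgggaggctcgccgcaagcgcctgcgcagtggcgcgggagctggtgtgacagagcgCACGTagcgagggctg
P4ha2: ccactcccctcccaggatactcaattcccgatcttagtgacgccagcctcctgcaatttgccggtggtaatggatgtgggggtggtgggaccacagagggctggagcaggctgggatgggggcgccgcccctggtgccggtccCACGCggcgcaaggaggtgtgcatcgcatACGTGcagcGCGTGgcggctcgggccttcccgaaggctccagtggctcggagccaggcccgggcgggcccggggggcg
Plod3: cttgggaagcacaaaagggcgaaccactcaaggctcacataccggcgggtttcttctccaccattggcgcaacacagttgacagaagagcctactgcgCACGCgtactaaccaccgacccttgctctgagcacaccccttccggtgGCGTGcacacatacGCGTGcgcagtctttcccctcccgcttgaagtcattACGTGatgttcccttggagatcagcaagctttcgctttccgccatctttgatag
P4ha1 and P4ha2 each held 1 ACGTG and 2 GCGTG, and Plod3 held 1 ACGTG and 3 GCGTG. The ACGTG match of P4ha1 began 16 bases before the start site on the minus strand, that of P4ha2 began 78 bases before it and that of Plod3 began 54 bases before it. Plod1 and Loxl4 each held a single GCGTG and no ACGTG. Among all 32851 RefSeq promoters of this length, 16.6% held ACGTG, 28.2% held GCGTG and 38.6% held either motif, with 16.7% holding at least 2 matches. A match is only a run of letters, not a site known to be bound.

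Hypoxia raised 5 of the 10 enzymes when the male and female effects were averaged, and the 5 were Lox, Loxl1, Loxl2, Loxl3 and Plod3. No member fell. Over all 13960 genes tested, 15.0% were called higher by the same rule (edgeR's quasi-likelihood test, Benjamini-Hochberg adjusted p under 0.05). The median log2 fold change was 0.50 over the 10 members and -0.01 over all genes. The crosslinking enzymes therefore made up 4 of the 5 genes that rose, whereas Plod1, Plod2, P4ha1 and P4ha2 had log2 fold changes between -0.04 and 0.06. In these bulk samples, more cells of a type and more RNA per cell cannot be told apart.

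**Figure D1:**
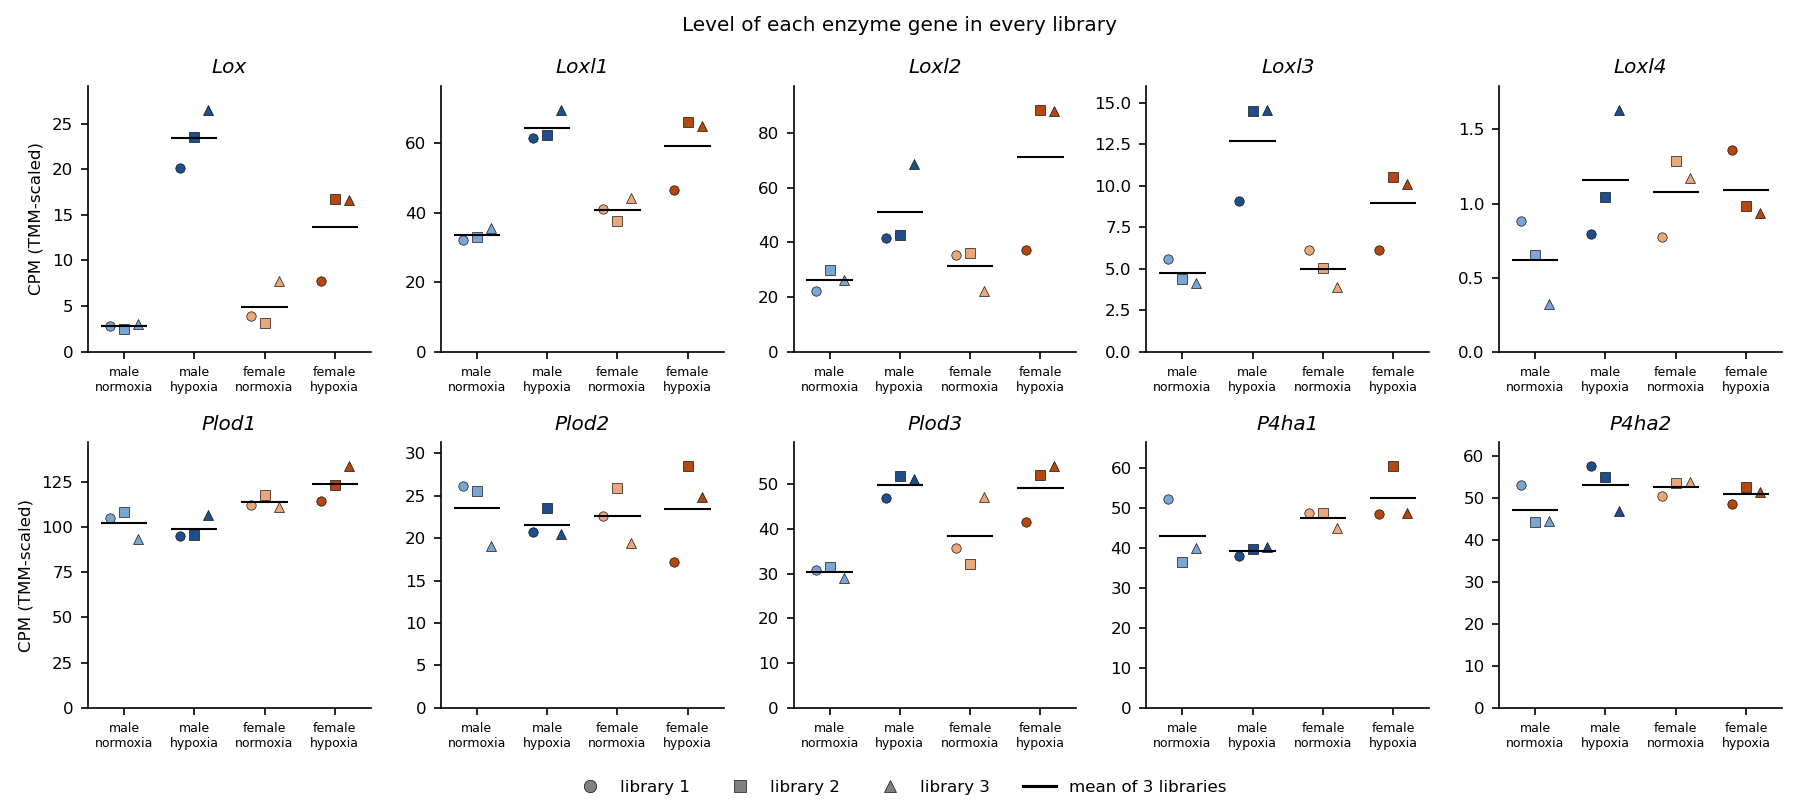
Level of each of the 10 enzyme genes in CPM (vertical axes, linear and starting at 0) in every library of the 4 groups, with symbols for library number and lines for the mean of 3. Lox, Loxl1, Loxl2, Loxl3 and Plod3 are higher in hypoxia on average, although Lox and Plod3 overlap between normoxia and hypoxia in females. Loxl4, Plod1, Plod2, P4ha1 and P4ha2 overlap between normoxia and hypoxia in both sexes.

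Lox (ENSMUSG00000024529), the founding lysyl oxidase, acts on fibrillar collagen and elastin. It stood at 2.83, 2.45 and 3.04 CPM in normoxic males and at 20.1, 23.6 and 26.5 CPM in hypoxic males. In normoxic females it stood at 3.86, 3.10 and 7.76 CPM, and in hypoxic females at 7.69, 16.7 and 16.6 CPM. The male groups lay far apart. The female groups met at one point, since normoxic library 3 was marginally above hypoxic library 1. The averaged rise was 4.85-fold (log2 2.28 ± 0.25 SE, adjusted p = 0.000358), with log2 3.08 ± 0.37 in males (adjusted p = 0.00126) and 1.48 ± 0.35 in females (adjusted p = 0.0341). This was the largest change among the 10 members.

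Loxl1 (ENSMUSG00000032334) is known for its role in elastic fibre upkeep. Its levels were 32.1, 32.9 and 35.7 CPM in normoxic males and 61.5, 62.5 and 69.6 CPM in hypoxic males. Normoxic females held 41.1, 37.6 and 44.1 CPM, and hypoxic females held 46.4, 66.2 and 65.1 CPM. Every hypoxia library was above every normoxia library, with hypoxic female library 1 the closest to the normoxic range. Loxl1 rose by log2 0.74 ± 0.09 on average (adjusted p = 0.000518), by 0.94 ± 0.13 in males (adjusted p = 0.00231) and by 0.53 ± 0.13 in females (adjusted p = 0.0382).

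Loxl2 (ENSMUSG00000034205) crosslinks collagen IV and fibrillar collagens. It was measured at 22.1, 29.8 and 26.2 CPM in normoxic males, and at 41.8, 42.8 and 68.7 CPM in hypoxic males. The females had 35.3, 36.1 and 22.2 CPM in normoxia and 37.2, 88.4 and 88.1 CPM in hypoxia. All 6 hypoxia libraries were above all 6 normoxia libraries, but hypoxic female library 1 exceeded the highest normoxic library only slightly. The averaged rise was log2 1.08 ± 0.23 (adjusted p = 0.00588). Within one sex Loxl2 did not pass, with 0.97 ± 0.32 in males (adjusted p = 0.0630) and 1.19 ± 0.32 in females (adjusted p = 0.0523). Without hypoxic male libraries 2 and 3 the averaged value was 0.94 with an adjusted p of 0.0586, which ended the call.

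Loxl3 (ENSMUSG00000000693) was scarce. It had 5.59, 4.40 and 4.14 CPM in normoxic males against 9.07, 14.5 and 14.6 CPM in hypoxic males, and 6.12, 5.03 and 3.88 CPM in normoxic females against 6.15, 10.6 and 10.1 CPM in hypoxic females. Hypoxic female library 1 was nearly level with normoxic female library 1, and the groups of neither sex overlapped. Loxl3 rose by log2 1.14 ± 0.19 on average (adjusted p = 0.00186) and by 1.43 ± 0.26 in males (adjusted p = 0.00699). The female value was 0.84 ± 0.26 and did not pass (adjusted p = 0.0787). The male call ended with transcript length as an offset (1.14, adjusted p = 0.142) and with limma on TPM (1.43, adjusted p = 0.0512).

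Loxl4 (ENSMUSG00000025185) was close to the limit of detection, with 5 to 32 estimated counts per library and at most 1.63 CPM. The averaged value was log2 0.46 ± 0.30, with a 95% interval from -0.19 to 1.11 (adjusted p = 0.268). A change of the size seen for Loxl1 or Plod3 lies inside that interval, as does no change. These data do not decide between them.

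Plod3 (ENSMUSG00000004846) encodes the lysyl hydroxylase that also carries glycosyltransferase activity, adding sugar to hydroxylysine. Normoxic males held 30.9, 31.5 and 29.1 CPM, and hypoxic males 47.0, 51.9 and 51.1 CPM. Normoxic females held 35.7, 32.2 and 47.3 CPM, and hypoxic females 41.7, 52.0 and 54.0 CPM. As for Lox, the male groups were separate, and normoxic female library 3 lay above hypoxic female library 1. Plod3 rose by log2 0.54 ± 0.10 on average (adjusted p = 0.00323) and by 0.71 ± 0.14 in males (adjusted p = 0.00918). The female value was 0.36 ± 0.14 and did not pass (adjusted p = 0.141). Without normoxic female library 3 the female value was 0.53 and passed (adjusted p = 0.0276).

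Plod1 (ENSMUSG00000019055), the lysyl hydroxylase of helical lysines, was the most abundant member in CPM. It held 105, 108 and 93.7 CPM in normoxic males, 95.02, 95.8 and 107 CPM in hypoxic males, 112, 118 and 111 CPM in normoxic females and 114, 123 and 134 CPM in hypoxic females. The groups overlapped in males, and hypoxic female library 1 fell inside the normoxic female range. The averaged value was log2 0.04 ± 0.07, with a 95% interval from -0.10 to 0.18 (adjusted p = 0.685).

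Plod2 (ENSMUSG00000032374) hydroxylates lysines of the collagen telopeptides, the short ends outside the helix, and is known as a HIF target and a fibrosis gene. It held 26.1, 25.6 and 19.03 CPM in normoxic males and 20.7, 23.6 and 20.5 CPM in hypoxic males. Females had 22.6, 25.9 and 19.5 CPM in normoxia and 17.2, 28.5 and 24.9 CPM in hypoxia. The groups overlapped in both sexes. The averaged value was log2 -0.04 ± 0.13, and the 95% interval ran from -0.33 to 0.25 (adjusted p = 0.856).

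P4ha1 (ENSMUSG00000019916) and P4ha2 (ENSMUSG00000018906) encode the catalytic alpha subunits that pair with P4hb. P4ha1 held 52.2, 36.6 and 40.1 CPM in normoxic males, 38.0, 39.6 and 40.3 CPM in hypoxic males, 48.7, 48.7 and 45.1 CPM in normoxic females and 48.5, 60.4 and 48.7 CPM in hypoxic females. P4ha2 held 53.1, 44.3 and 44.7 CPM in normoxic males, 57.6, 55.0 and 47.0 CPM in hypoxic males, 50.5, 53.6 and 53.8 CPM in normoxic females and 48.6, 52.8 and 51.5 CPM in hypoxic females. Normoxia and hypoxia overlapped for both genes in both sexes. The averaged values were log2 0.01 ± 0.09 for P4ha1 (95% interval -0.19 to 0.21, adjusted p = 0.947) and 0.06 ± 0.07 for P4ha2 (-0.09 to 0.22, adjusted p = 0.546). With upper 95% limits of at most 0.25, the intervals of Plod1, Plod2, P4ha1 and P4ha2 lie below the averaged estimates of the 5 genes that rose. The remaining alpha subunit gene, P4ha3, had 0 to 10 estimated counts, was at 0 in 2 libraries and was not tested.

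The level of no change depends on the scaling. On log2(TPM + 0.1), where TPM is the deposited abundance per transcript length, limma called 7 members higher, adding P4ha1 (0.41, adjusted p = 0.0189) and Plod1 (0.41, adjusted p = 0.0123). On that scale 31.5% of all genes were called higher. The median of all genes was 0.29 there against -0.01 on TMM-scaled counts. Of the genes called in either direction, 4392 of 4678 were higher in TPM, against 2100 of 3896 with TMM. The values of 0.41 for P4ha1 and Plod1 include that shift of all genes, as does the value of 0.99 for Plod3.

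**Figure D2:**
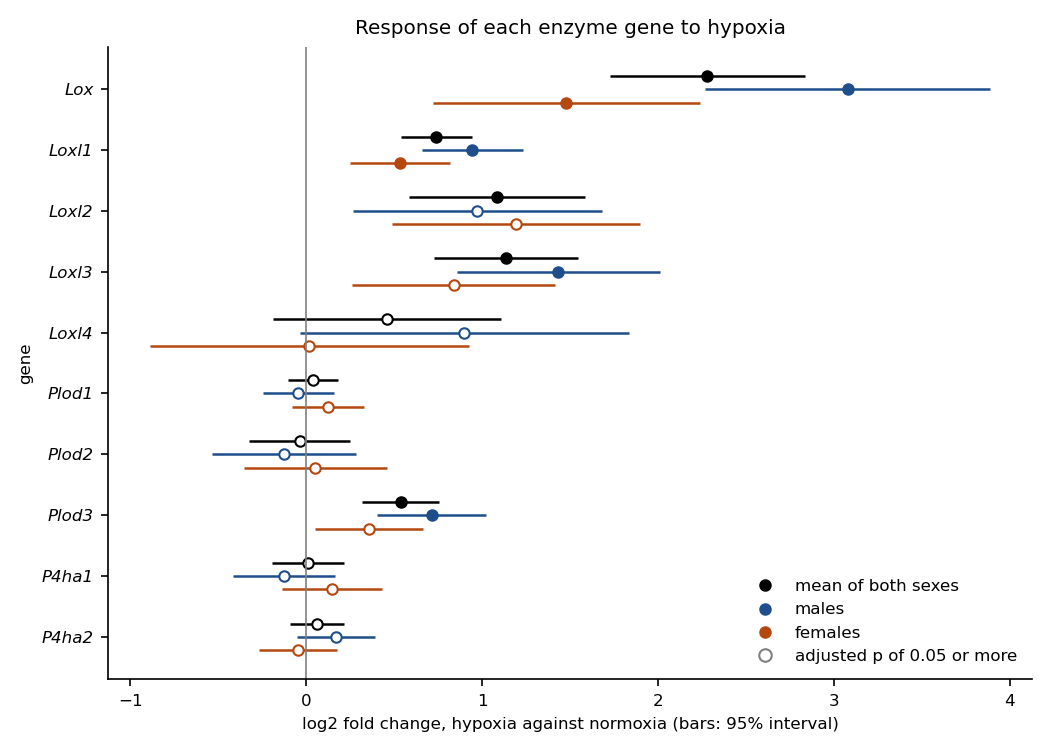
Log2 fold change of hypoxia against normoxia (horizontal axis) for each member, averaged and by sex, with 95% intervals and filled points for an adjusted p under 0.05. The lysyl oxidases Lox, Loxl1, Loxl2 and Loxl3 and the lysyl hydroxylase Plod3 lie to the right of 0 in the average, and the intervals of the other 5 members include 0.

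In males, 4 members passed, namely Lox, Loxl1, Loxl3 and Plod3, where 8.47% of all genes were called higher. In females 2 passed, Lox and Loxl1, against 3.97% of all genes. Without overlap between the oxygen levels, 5 members were higher in hypoxia in males, where 21.4% of all genes were. In females 3 members (Loxl1, Loxl2 and Loxl3) were separate in this way, against 13.2% of all genes. The same 3 had all 6 hypoxia libraries above all 6 normoxia libraries, against 5.56% of all genes. No member had all hypoxia libraries below the normoxia libraries of either sex, against 19.8% of all genes in males and 12.7% in females.

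The female count rested on single libraries. It was 5 without hypoxic female library 1, where Lox was at log2 1.77 (adjusted p = 0.00574), and 3 without normoxic female library 3 or without hypoxic male library 3. It was 0 without hypoxic female library 2 or 3, normoxic female library 1 or 2, hypoxic male library 2 or any one of the 3 normoxic male libraries. The calls over all genes moved too. With all libraries 554 of 13960 genes were higher in females, and without hypoxic female library 1 it was 1255 of 14331. Leaving out hypoxic female library 2 gave 62 of 14303 genes, library 3 gave 41 of 14295, and hypoxic male library 2 gave 389 of 14220. Dropping normoxic female library 1 gave 155 of 14335 and library 2 gave 100 of 14295. For normoxic male libraries 1, 2 and 3 it was 393 of 14303, 393 of 14296 and 390 of 14325. For normoxic female library 3 it was 642 of 14290, and for hypoxic male library 3 it was 497 of 14235. Without hypoxic male library 2 or any normoxic male library, Lox was at 1.48 to 1.49 in females (adjusted p = 0.0504 to 0.0525) and Loxl1 at 0.53 to 0.54 (adjusted p = 0.0552 to 0.0584). Without a female library that ended the call, Lox was at 1.23 to 1.34 and Loxl1 at 0.45 to 0.54. The male count was 4 or 5 with any 1 library left out, beside 519 of 14235 to 1645 of 14290 genes called higher. Without hypoxic male libraries 2 and 3 together, a single hypoxic male library was left and is assumed to vary like the other groups. In that fit the male values were 2.86 for Lox, 0.88 for Loxl1, 0.95 for Loxl3 and 0.63 for Plod3. With all libraries they were 3.08, 0.94, 1.43 and 0.71. The female values were 1.48 for Lox and 0.53 for Loxl1, as with all libraries. Only effect sizes are given for each sex here, and not every call within a sex was kept in that fit. The averaged count was then 4, with Lox, Loxl1, Loxl3 and Plod3 passing, against 5.41% of all genes. Hypoxic male library 1, which had 0.26 CPM of Myl7, held 20.1 CPM of Lox, 61.5 CPM of Loxl1 and 47.0 CPM of Plod3, all above the normoxic males.

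The response was compared directly between the sexes through the female effect minus the male effect. No member passed, 0.00716% of all genes did, and 2 members had an unadjusted p under 0.05. Lox had a difference of log2 -1.60 ± 0.49, a smaller estimate in females, with a 95% interval from -2.68 to -0.51 (unadjusted p = 0.00767, adjusted p = 0.641). Loxl1 had a difference of -0.41 ± 0.18 (adjusted p = 0.730). The Lox difference was -1.10 without normoxic female library 3, -1.31 without hypoxic female library 1, and -0.57 without those libraries and hypoxic male libraries 2 and 3. DESeq2 also called 0 members, and 68 of 13948 genes.

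Between females and males in normoxia no member passed, 0.0716% of all genes did, and 2 members (Lox and Plod3) had an unadjusted p under 0.05. There DESeq2 called 0 members and 58 of 13948 genes. In hypoxia again no member passed, with 0.150% of all genes called and 3 members (Lox, Plod1 and P4ha1) at an unadjusted p under 0.05. In hypoxia Plod1 was higher in females by log2 0.32 ± 0.09 (unadjusted p = 0.00524, adjusted p = 0.285). By DESeq2, Plod1 was the only member called (0.33, adjusted p = 0.0354), where 184 of 13948 genes were called. P4ha1 had a difference of 0.42 ± 0.13 in the same direction (adjusted p = 0.309).

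Levels were compared between genes in TPM, which accounts for transcript length. Over the 12 libraries Plod1 was highest at 24.5 ± 5.04 TPM (SD, n = 12), followed by P4ha2 at 23.1 ± 6.54, Plod3 at 15.6 ± 6.25, P4ha1 at 10.6 ± 2.32 and Loxl1 at 10.5 ± 4.28. Loxl2 stood at 5.79 ± 3.60 TPM and Plod2 at 4.996 ± 1.11. Loxl3 at 1.82 ± 1.29, Lox at 1.71 ± 1.52 and Loxl4 at 0.244 ± 0.156 TPM closed the order. Each neighbouring pair had overlapping ranges over the 12 libraries, so single steps in this order do not exceed the spread over all libraries. The gap from Plod2, whose lowest value was 3.47 TPM, to Loxl4, whose highest was 0.638 TPM, did.

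The order also moved with oxygen, for some genes in males only. Loxl1 had 5.89 ± 0.353 TPM in normoxic males, below P4ha1 at 8.19 ± 1.23 TPM (SD, n = 3 each). In hypoxic males Loxl1 had 15.1 ± 2.01 TPM, above P4ha1 at 11.0 ± 1.63 TPM, with no overlap between the genes in either group. Plod3 went from 8.22 ± 0.810 to 21.5 ± 3.38 TPM in males, while P4ha2 had 23.2 ± 11.1 and 21.4 ± 2.36 TPM. In females the means of these pairs kept their order. In normoxic females P4ha1 had 9.98 and Loxl1 7.79 TPM, and P4ha2 had 19.8 and Plod3 12.8 TPM. In hypoxic females P4ha1 had 13.3 and Loxl1 13.2 TPM, and P4ha2 had 27.8 and Plod3 19.7 TPM. These TPM values include the shift of all genes on that scale and the deposited transcript length, and on TMM-scaled counts the male change of Plod3 was 1.64-fold. Plod2 was above Loxl2 in normoxia and below it in hypoxia in both sexes. In males Plod2 went from 4.39 ± 0.843 to 5.53 ± 1.02 TPM and Loxl2 from 2.76 ± 0.513 to 7.17 ± 2.12 TPM. In females Plod2 went from 4.47 ± 0.778 to 5.59 ± 1.57 TPM and Loxl2 from 3.59 ± 0.971 to 9.65 ± 4.41 TPM, and the ranges of these genes overlapped in every group but normoxic males.

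Within the lysyl oxidases, Lox made up 3.43%, 3.12% and 3.48% of the family's summed TPM in normoxic males and 12.6%, 13.4% and 12.6% in hypoxic males. It made up 3.71%, 3.07% and 8.16% in normoxic females and 6.52%, 8.03% and 7.59% in hypoxic females. The share was separate by oxygen in males, and in females it was not, because of normoxic library 3. Loxl1 was the largest part in every library, at 43.7% to 65.8%. Within the lysyl hydroxylases, the Plod3 share was 25.1%, 25.9% and 27.2% in normoxic males and 39.7%, 39.9% and 41.8% in hypoxic males. It was 31.5%, 26.5% and 37.1% in normoxic females and 32.0%, 39.2% and 34.9% in hypoxic females, with overlap.

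The enzymes were next set beside the collagen transcripts they act on. Summed fibrillar collagen chains held 43.8, 44.4 and 46.5 TPM in normoxic males and 114, 197 and 182 TPM in hypoxic males. Females held 73.6, 71.5 and 30.1 TPM in normoxia and 67.7, 171 and 172 TPM in hypoxia. Collagen was thus higher in every hypoxic male library, and in females in hypoxic libraries 2 and 3 but not in library 1.

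Lysyl oxidases summed to 218, 235 and 219 TPM per 1000 TPM of fibrillar collagen in normoxic males and to 198, 161 and 183 in hypoxic males. Females had 183, 187 and 413 in normoxia and 242, 186 and 206 in hypoxia. Every hypoxic male library lay below every normoxic male library, and the female groups overlapped. With a fixed transcript length per gene the male ratios were 212 to 239 in normoxia and 153 to 205 in hypoxia. Lox alone went the other way in males, from 7.33 to 7.61 in normoxia and from 21.6 to 24.9 in hypoxia. Loxl2 alone was lower in males, from 52.0 to 74.3 in normoxia and from 34.7 to 51.9 in hypoxia. In females Lox alone overlapped, at 5.75 to 33.7 in normoxia and 14.9 to 15.8 in hypoxia. Lysyl hydroxylases per 1000 TPM of collagen were 728, 793 and 596 in normoxic males and 387, 295 and 311 in hypoxic males, with no overlap. In females they were 529, 567 and 1370 in normoxia and 641, 343 and 371 in hypoxia.

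Prolyl 4-hydroxylase alpha subunits per 1000 TPM of collagen were 680, 963 and 466 in normoxic males and 264, 186 and 167 in hypoxic males. In females they were 395, 442 and 953 in normoxia and 553, 298 and 202 in hypoxia. In males the hydroxylase ratios were lower in every hypoxia library, and in females hypoxic libraries 2 and 3 were below all normoxic libraries while library 1 was not. These ratios are descriptions with no test. With a fixed transcript length per gene in place of the deposited one, the prolyl 4-hydroxylase ratio was 551 to 669 in normoxic males and 176 to 303 in hypoxic males.

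**Figure D3:**
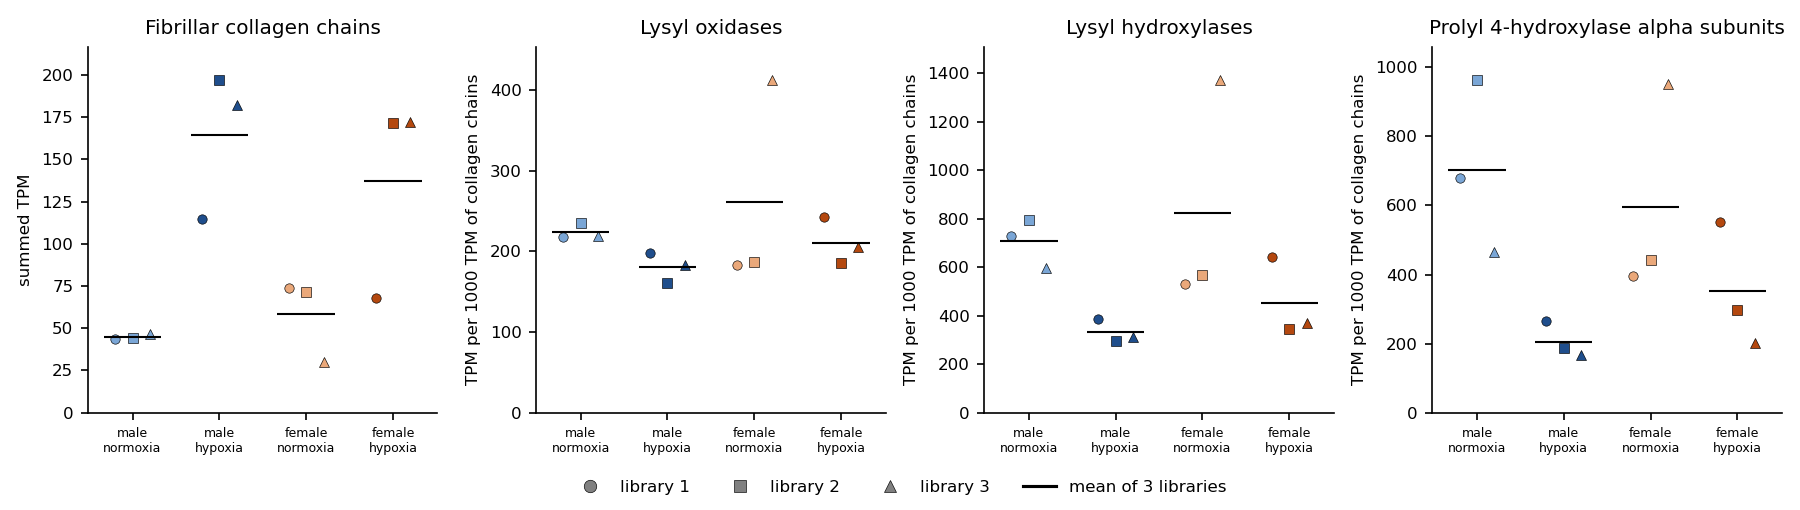
Summed TPM of fibrillar collagen chains (left) and summed TPM of each enzyme family per 1000 TPM of those chains, by library, with lines for the mean of 3. In males the collagen sum is higher in hypoxia and all 3 family ratios are lower. Normoxic female library 3 is the highest point in the oxidase and lysyl hydroxylase panels.

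The 5 members that rose did not vary alike within groups. On deviations of log2 CPM from the group means over 12 libraries, Lox and Plod3 had a Pearson r of 0.93 and Lox and Loxl1 of 0.87. Loxl2 went with the activated fibroblast gene Postn at 0.95, and Loxl3 did at 0.87, whereas Lox had 0.20 with Postn and 0.21 with Col1a1. Plod2 and Plod1, which did not pass, had 0.77 and 0.71 with Postn, and Loxl1 had 0.57. Every other member lay between -0.13 (P4ha2) and 0.36 (P4ha1). These are descriptions over libraries that share 4 group means and a scaling, and normoxic female library 3 weighs on them. There Lox at 7.76 CPM and Plod3 at 47.3 CPM were the highest of the normoxia libraries, while Loxl2 at 22.2 CPM and Loxl3 at 3.88 CPM were among the lowest. That library also had the high immediate early genes, whose part in these levels was not tested.

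Markers of other cells moved with oxygen as well. Summed activated fibroblast markers, with all 8 detected, were 94.1 to 103 CPM in normoxic males, 255 to 582 CPM in hypoxic males, 73.0 to 138 CPM in normoxic females and 179 to 523 CPM in hypoxic females. General fibroblast markers, 10 in all, ranged from 1699 to 1774, 1888 to 2119, 1650 to 2018 and 1656 to 2110 CPM in the same order. Of these lists, 6 of 8 activated fibroblast genes and 5 of 10 general ones rose in the averaged contrast, and none fell. Summed endothelial markers, 10 in all, were 943 to 1153 CPM in normoxic males, 1396 to 1667 CPM in hypoxic males, 1102 to 1302 CPM in normoxic females and 1422 to 1813 CPM in hypoxic females, with 7 of 10 genes higher. Smooth muscle and pericyte markers, 9 in all, were 949.7 to 1048, 1054 to 1531, 982 to 1134 and 1102 to 1667 CPM in the same order of groups, with 4 genes higher and 1 lower. Macrophage markers, 8 in all, were 277 to 378, 513 to 650, 308 to 405 and 320 to 484 CPM, with 4 genes higher. Erythroid markers, 7 in all, were 1625 to 2228, 9908 to 11907, 1580 to 2042 and 6730 to 11269 CPM, and all 7 rose. Ventricular cardiomyocyte markers, 8 in all, were 54342 to 61051, 42985 to 54170, 54637 to 62669 and 44154 to 64391 CPM. Of these 1 gene was lower and 0 were higher. The highest hypoxic female sum was that of library 1, with 44154 and 45816 CPM in libraries 2 and 3. Without hypoxic male libraries 2 and 3, 5 of 8 activated fibroblast, 2 of 10 general fibroblast, 3 of 10 endothelial, 0 of 9 smooth muscle and pericyte, 3 of 8 macrophage and 7 of 7 erythroid markers rose. Their part in the enzymes' rise was not tested.

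Genes with the most similar pattern were taken by Pearson r of log2 CPM over the 12 libraries among 12817 tested genes, without predicted genes and members. Lox was closest to Plp2 (r = 0.99), Thbs3 and Serping1 (both 0.97). Loxl1 was closest to the endothelial adhesion gene Pecam1 (0.98), Arpc1b and Cdc20. Loxl2 was closest to Nav1 (0.98), Kctd17 and Jak3, and Loxl3 to the elastic fibre genes Ltbp2 and Mfap2 (both 0.98) and to Ap1s2. Plod3 was closest to the TGF-beta receptor gene Tgfbr1 (0.99), Capn2 and Cdc42se1. By Spearman rho the 3 closest genes differed in part, and Plp2, Serping1, Mfap2 and Capn2 were named by both measures.

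Other genes of collagen folding and processing were read against the enzymes. Of 24 listed genes 23 were tested, and in the averaged contrast 11 rose and 1 fell, with a median log2 fold change of 0.30. P4hb, the partner subunit of P4ha1 and P4ha2, rose by log2 0.37 ± 0.07 (adjusted p = 0.00424), although the alpha subunits did not pass. Colgalt1, which adds galactose to hydroxylysine, rose by 0.30 (adjusted p = 0.0102), and the prolyl 3-hydroxylase P3h1 rose by 0.38 (adjusted p = 0.0107). P3h4, which forms a complex with lysyl hydroxylase 1, fell by 0.69 (adjusted p = 0.00439). The collagen chaperone Serpinh1 was at 0.21 and did not pass (adjusted p = 0.378).

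Of 8 listed genes of procollagen trimming 4 rose and none fell. Adamts2, which removes the amino-terminal propeptide, rose by log2 1.41 ± 0.18 (adjusted p = 0.000655). Bmp1, which removes the carboxy-terminal propeptide and also activates pro-lysyl oxidase, rose by 0.84 ± 0.23 (adjusted p = 0.0214), and its enhancer Pcolce rose by 0.96 ± 0.18 (adjusted p = 0.00345), as did Pcolce2 by 0.42 (adjusted p = 0.0128). The other propeptidases did not pass, with Adamts3 at 0.17 (adjusted p = 0.468), Adamts14 at -0.10 (adjusted p = 0.836), Tll1 at 1.06 (adjusted p = 0.0988, although it rose by 2.21 in males with adjusted p = 0.0422) and Tll2 at -0.78 (adjusted p = 0.187). The whole folding and processing list had 8 genes higher and 1 lower in males, and 2 higher and 1 lower in females.

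Among the substrates, 6 of 8 tested fibrillar collagen chains rose, with a median of 1.06, and none fell. Col5a2 was at 1.40 ± 0.20 (adjusted p = 0.00105), Col1a1 at 1.32 ± 0.21 (adjusted p = 0.00175), Col27a1 at 0.97 (adjusted p = 0.00286) and Col1a2 at 1.15 (adjusted p = 0.00457). Of 8 basement membrane chains 3 rose, namely Col18a1 (1.35), Col4a2 (0.80) and Col4a1 (0.80), and the list median was 0.59. Elastic fibre genes and lysyl oxidase partners had 14 of 19 higher, none lower and a median of 1.14, with Fbln2 at 1.42, Fn1 at 1.67, Postn at 2.65 and Mfap5 at 1.53. Fn1 encodes fibronectin and Postn periostin, matrix proteins that bind lysyl oxidase or its activating protease. Without hypoxic male libraries 2 and 3, 3 of 8 fibrillar chains, 0 of 8 basement membrane chains, 11 of 19 elastic fibre genes and partners and 4 of 23 folding and processing genes rose.

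Of 17 tested HIF targets outside collagen biology, 1 rose and 3 fell, with a median of 0.09. Over all 13960 genes tested, 2100 rose and 1796 fell. Ldha, the lactate dehydrogenase A gene, rose by log2 0.84 (adjusted p = 0.000132). Ankrd37 fell by 2.60, the hexokinase gene Hk2 fell by 0.52 and the HIF prolyl hydroxylase gene Egln1 fell by 0.27. Vegfa was at -0.12 and did not pass (adjusted p = 0.405). Of 9 tested genes that supply copper, iron, ascorbate or 2-oxoglutarate to the enzymes, only the copper chaperone Atox1 passed (0.27, adjusted p = 0.0142).

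**Figure D4:**
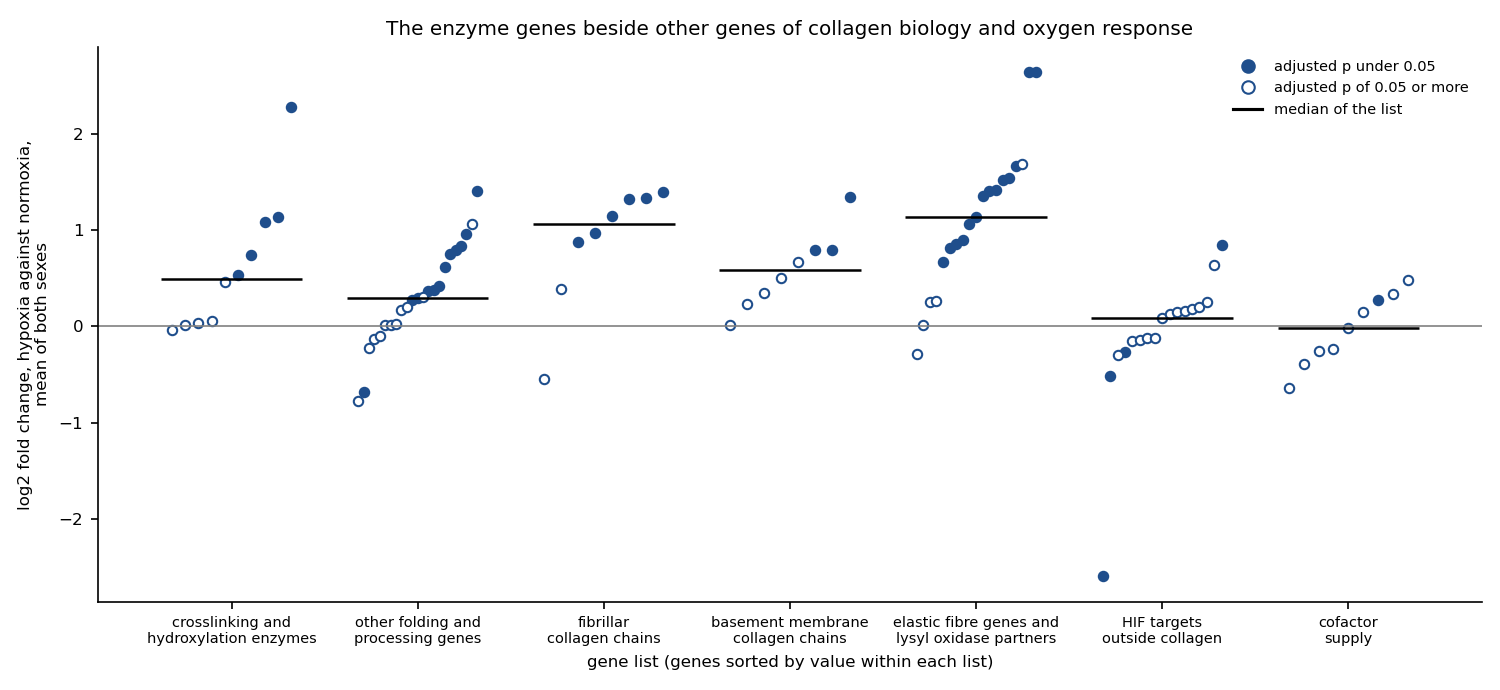
Averaged log2 fold change of hypoxia against normoxia (vertical axis) for each tested gene of 7 lists, sorted within a list, with filled points for an adjusted p under 0.05 and lines for list medians. In the enzyme list 5 genes lie above 0.5 and Loxl4 lies at 0.46. Plod1, Plod2, P4ha1 and P4ha2 lie between -0.04 and 0.06. The median is highest for elastic fibre genes at 1.14 and fibrillar chains at 1.06.

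The deposited table also gives the average effective transcript length, the mean over a gene's isoforms weighted by abundance. Loxl1 and Loxl2 had a single value in all libraries, 3047 and 5066 bases, each 250 bases below the annotated length of Loxl1-201 (3297 bases) and Loxl2-201 (5316 bases) in GENCODE M21. P4ha1 had 2833, 2818 and 2722 bases in normoxic males and 2560, 2530 and 2553 bases in hypoxic males. In females it had 2861, 2780 and 2654 bases in normoxia and 2742, 2634 and 2636 bases in hypoxia. The male groups did not overlap, and the female groups did. How many of all genes separate in length in this way was not counted.

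Plod1 had 2843, 2890 and 2927 bases in normoxic males against 2754, 2749 and 2666 bases in hypoxic males. In females it had 2904, 2868 and 2838 bases in normoxia and 2777, 2837 and 2757 bases in hypoxia. Its groups did not overlap in either sex, although the closest female libraries differed by less than 1 base. The share of all genes with such a separation was not counted. Plod3 had 2009, 1936 and 2015 bases in normoxic males and 1697, 1814 and 1502 bases in hypoxic males, and the female groups overlapped. P4ha2, with 15 annotated transcripts, was the least steady, from 700 bases in normoxic male library 2 to 1855 bases in hypoxic male library 2. In normoxic male library 2 its deposited abundance was 35.5 TPM, against 20.2 and 14.0 TPM in the other normoxic males, while its level of 44.3 CPM was close to the 44.7 CPM of normoxic male library 3. With the length as an offset, the averaged count of members was 5, the male count 3, without Loxl3, and the female count 0. Over all 13960 genes, 1504, 716 and 245 were called higher in the same contrasts. In the averaged contrast of that fit Plod3 rose by log2 0.68 (adjusted p = 0.00524).

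**Figure D5:**
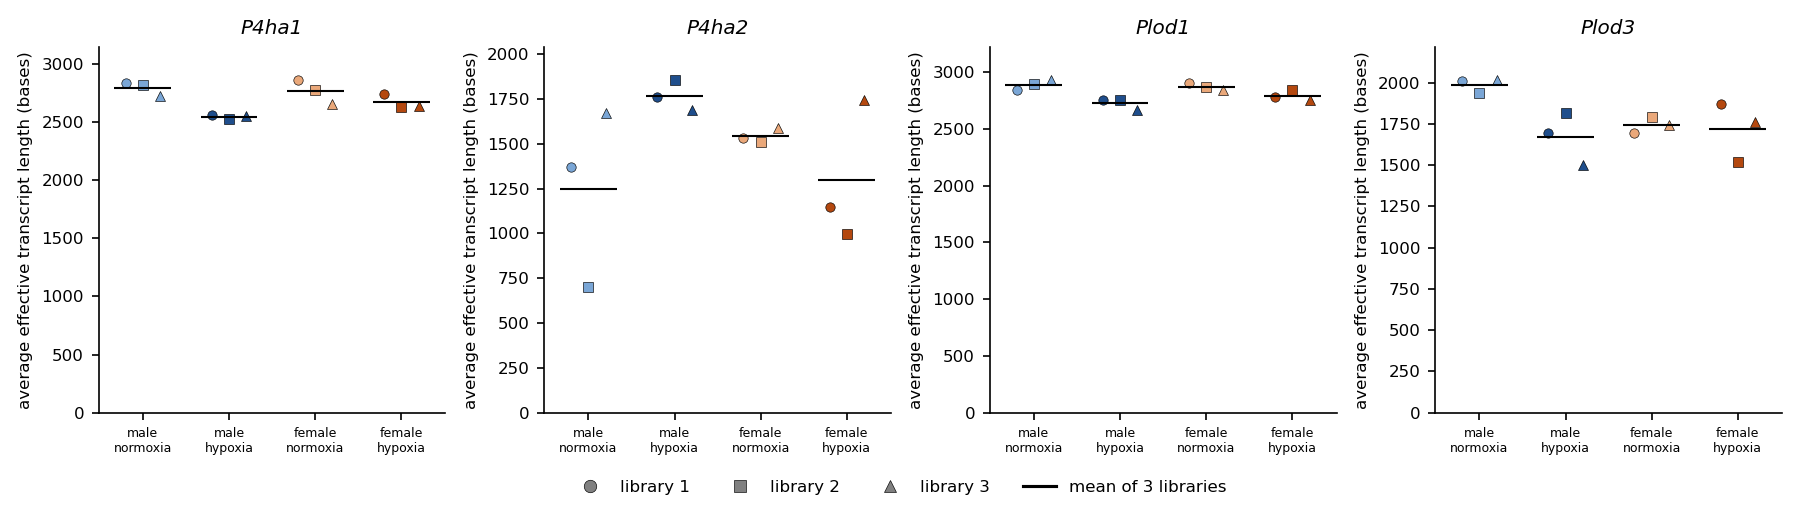
Average effective transcript length in bases (vertical axes, from 0) of P4ha1, P4ha2, Plod1 and Plod3 in every library, with lines for the mean of 3. P4ha1, Plod1 and Plod3 are shorter in all hypoxic than in all normoxic male libraries, and P4ha2 ranges from 700 to 1855 bases. The share of all genes with such a separation was not counted.

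Some members share their locus with another gene. In GENCODE M21, Lox overlaps AC161119.1, Loxl2 overlaps Gm27177 and Gm37513, Loxl3 overlaps Htra2, Plod2 overlaps Gm38391 and Plod3 overlaps Znhit1, each on the opposite strand. The libraries were made with a strand-specific kit, but the strand setting used for quantification is not given in the sources used here. Reads from such overlaps are uncertain for these 5 genes.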

How the data were processed

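Messenger RNA of 12 ventricle libraries was sequenced with a directional kit, per the labels' protocols. The submitters' processing notes name FastQC, Salmon and the build GRCm39; versions, annotation release and strand setting are not given in the sources used here. The authors deposited, per the file headers, 3 values per gene and library: an estimated count, an abundance in TPM and an average effective transcript length in bases. TPM summed to 889905 to 926060 per library. A symbol was found for 99.3% of gene identifiers, and 269 had none.

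Estimated counts were rounded to whole numbers. edgeR 4.0.16 in R 4.3.3 was used with filterByExpr, TMM factors, a model of 4 group means over all 12 libraries and two-sided quasi-likelihood tests, with Benjamini-Hochberg adjustment over 13960 genes and a threshold of 0.05. SE was derived from the F statistic. The code was tested on simulated data. DESeq2 1.42.0 and limma 3.58.1 gave alternatives, with other factors, filters, length offsets, scales and left-out libraries; limma on TPM, upper quartile factors and the length offset without mitochondrial and haemoglobin genes were added after seeing the data. No batch is named in the labels. Promoters came from RefSeq (GRCm38.p6) and overlaps from GENCODE M21; their build differs from that of the files.

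The members, lists and tests were chosen with earlier results of these data known. The text names every member, the 4 genes of each pathway list with the smallest p in the averaged contrast among those that passed, genes of the same step as an enzyme, up to 3 markers per cell type and the most similar genes. Other list genes are counted only; Vegfa was named after its value was seen. Replicate numbers are given in the titles, and over 18 pairs of same-numbered libraries 1 correlation of deviations exceeded 0.1 (range -0.05 to 0.19), so the numbers were not taken as pairs.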

Additional observations from a re-analysis of the deposited data

How the results depend on the processing

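Of 26 alternative settings, the fit of only the compared libraries gives no averaged contrast. The averaged count was 5 members in 23 settings, 4 without male hypoxia libraries 2 and 3, and 7 with limma on TPM, where Plod1 and P4ha1 joined. Lox passed in each of these averaged fits. The male count was 4 to 5 with 1 library left out, beside 519 of 14235 to 1645 of 14290 genes called higher. The female count was 4 with DESeq2, where 1047 of 13948 genes were higher. It was 0 with the transcript length offset, where 245 of 13960 genes were higher. This held also without mitochondrial and haemoglobin genes (238 of 13939). It was 0 with only the compared libraries, where 26 of 13383 genes were higher. With 1 library left out it was 0 to 5, beside 41 of 14295 to 1255 of 14331 genes. Without male hypoxia libraries 2 and 3, values for each sex are given above by effect size only. For females against males in hypoxia, DESeq2 called 1 member and 184 of 13948 genes. The interaction and the sex difference in normoxia gave 0 members in every leave-one-out fit. Plod1 in males reversed to 0.45 with limma on TPM (adjusted p = 0.0442), where all genes shifted by 0.39. Fits without libraries, or with only those compared, hold fewer samples; for the other moves the cause was not tested.

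With the replicate number as a block, 5 members passed in the averaged contrast, 4 in males, 2 in females and 0 in the interaction, as without it. Over all 13960 genes, 2067 were called higher on average, 1203 in males and 529 in females, and 1 was called in the interaction. The numbers are shared labels only. Of 1540 single-gene values under alternatives, 31 lost and 21 gained the threshold, and 71 changed sign with neither value past it.

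Limits are 3 libraries per group, 2 hypoxic male libraries with atrial and adipocyte markers, few counts for Loxl4 and P4ha3, and isoform lengths that move TPM.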
